A study of Mus musculus with 24 samples.

Results

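Venus-positive and Venus-negative cells of the mouse colon were compared across all genes, using the 6 colon libraries (3 of each sort) out of 24 libraries in the series. The members were chosen by their tissue and sort labels, and every gene of the count table was followed, with 15044 of 53465 genes holding enough counts to be tested. The mice carried a *Guca2a*-Venus bacterial artificial chromosome transgene, in which the yellow fluorescent protein Venus replaces the coding sequence of *Guca2a*, the gene of the gut peptide prohormone proguanylin. Both sorts came from these transgenic mice, which descended from a single founder, had been crossed back to C57Bl6J to a varying degree and were fed standard chow. The whole colon and rectum were digested to single cells, and live, nucleated cells without the leukocyte marker CD45 were sorted by Venus fluorescence. The other 18 libraries hold the same sorts of the duodenum, jejunum and ileum and serve here only for the question of what was different in the colon. The transgene retains *Guca2a* sequence outside the coding part, and reads of such sequence cannot be told apart from those of the native gene. The study's text gives 3 mice per region. Neither the ages of the mice nor which libraries came from the same mouse is given in the labels. The study's methods describe both sorts as taken from each digested tissue, so pairs may exist that the labels do not name. Positive and negative libraries were therefore not paired, and the p-values describe the spread between these libraries. The library numbers used below follow the order of the samples in the series, and libraries of the same number are not a known pair.

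Guanylin and uroguanylin, the products of *Guca2a* and *Guca2b*, are secreted into the gut lumen and activate guanylate cyclase C (*Gucy2c*) on epithelial cells. The cyclic GMP made there activates protein kinase G II (*Prkg2*), which promotes chloride and bicarbonate secretion through CFTR and reduces sodium uptake by the exchanger NHE3 (*Slc9a3*). The colonic epithelium is renewed from stem cells at the crypt base, and its cells differentiate into absorptive colonocytes, mucus-producing goblet cells, hormone-producing enteroendocrine cells and chemosensory tuft cells as they move towards the surface.

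The colon libraries held between 9255295 and 18403292 counts assigned to genes. Ribosomal RNA of the mitochondrial genome took 66.3% to 76.0% of the counts in the positive and 63.7% to 78.9% in the negative libraries, so that 3808547 to 5307277 counts and 2583422 to 3701407 counts were left for genes of the nucleus. Levels are given as CPM scaled by TMM factors (normalised CPM, reads of a gene relative to all counted reads), and levels of different genes are compared only after division by exon length (CPM per kb). At this depth 3 counts correspond to 0.194 to 0.360 normalised CPM, depending on the library. The sort label was met by *Guca2a* itself. The epithelial genes *Epcam* (411 to 459 against 269 to 326 normalised CPM) and *Cdh1* (285 to 373 against 173 to 271) were high in both, with log2 differences of 0.59 and 0.63 that did not pass the test. None of the 12 tested of 26 immune cell markers was called by edgeR and 1 was lower by DESeq2 (median log2 fold change -1.75, and -1.0 with genes at 0 in a sort at their bound; 4 with a positive sign), their summed level being 3.01 to 6.65 normalised CPM in the positive and 5.57 to 6.71 in the negative libraries. Of 12 tested endothelial, stromal, muscle and neural markers 1 was lower, the lymphatic gene *Lyve1*, which was at 5.79 normalised CPM in negative library 2 and at most 0.595 in the other 5 libraries. Its adjusted p of 0.0218 (edgeR) became 0.462 without that library, 0.116 without positive library 2 and 0.0784 without positive library 3. The median log2 fold change of this list was -1.70, with a positive sign for 2 of the 12. Their summed level was 7.15 to 10.9 in the positive and 5.99 to 24 in the negative libraries. The part of such cells in the differences between the sorts was not tested. No red blood cell gene had enough counts to be tested.

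In the colon 1400 genes were higher and 572 lower in positive cells at an adjusted p under 0.05 (edgeR), which is 9.31% and 3.80% of the genes tested. These shares are the background against which the gene groups below are read, together with a median log2 fold change over all genes of 0.00. DESeq2 called 1472 higher and 1118 lower. Without positive library 2 the numbers fell to 747 and 180, and without positive library 1 to 1034 and 211. Of the 1972 calls, 791 were made again whichever of the 6 libraries was left out, 680 of them higher and 111 lower. Among protein-coding genes of the nucleus, 1342 of 1362 genes called higher had every positive library above every negative one, and 500 of 550 genes called lower the reverse. Over all genes tested, called or not, 19.1% had positive libraries that all lay above the negative ones and 11.9% that all lay below. In a bulk comparison of this kind, fewer cells of a type and less RNA per cell cannot be told apart.

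**Figure D1:**
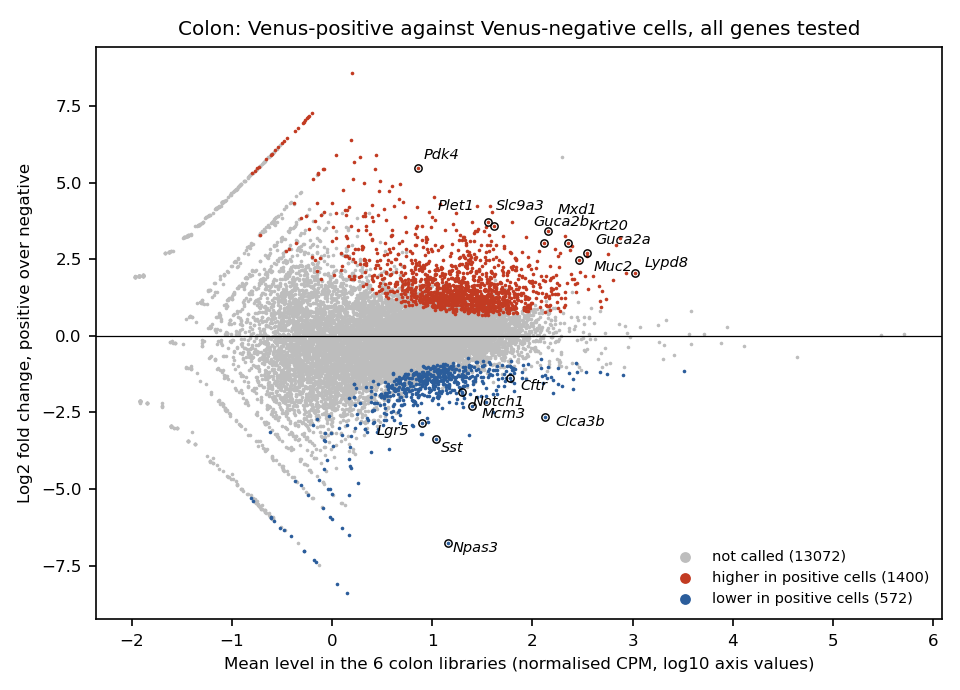
Log2 fold change between Venus-positive and Venus-negative colon cells (vertical) against the mean level over the 6 colon libraries (horizontal, log10 of normalised CPM) for the 15044 genes tested. Red points are the 1400 genes called higher, blue points the 572 called lower, grey points the rest, and circles mark genes named in the text.

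Of 12 tested genes of guanylin signalling 7 were higher and 1 was lower, with a median log2 fold change of 1.63. The 7 include *Guca2a*, whose regulatory sequence drives Venus, so its increase is a check of the sort and not a separate result. *Guca2a* was at 516, 613 and 706.9 normalised CPM in the positive libraries and at 69.5, 94.3 and 120 in the negative ones. *Guca2b* was at 219, 215 and 259 against 28.5, 21.9 and 34.4. Both genes were thus higher in each positive library than in any negative one, and the negative cells were not devoid of either. The log2 fold changes were 2.69 ± 0.34 (standard error, adjusted p = 4.87e-06, edgeR) for *Guca2a* and 3.03 ± 0.33 (adjusted p = 8.27e-07) for *Guca2b*. Per length, *Guca2a* stood at 1030 CPM per kb in positive cells and *Guca2b* at 265.

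The promoter of *Guca2a* is shown because Venus is driven by the regulatory sequence of this gene, and that of *Guca2b* because the neighbouring gene was higher in the same cells. Both windows run from 250 bases before to 50 bases after the start of transcription in RefSeq (GRCm38.p6), *Guca2a* at chr4:119637482-119637781 on the plus strand and *Guca2b* at chr4:119658896-119659195 on the minus strand, each read 5′ to 3′ on the strand of its gene. Capitals mark 3 motifs that were searched on both strands. The motif bound by factors of the gata family was searched as AGATAA. A single arm of the HNF1 site was searched as GTTAAT. The box of the core promoter was searched as TATAA.
Guca2a: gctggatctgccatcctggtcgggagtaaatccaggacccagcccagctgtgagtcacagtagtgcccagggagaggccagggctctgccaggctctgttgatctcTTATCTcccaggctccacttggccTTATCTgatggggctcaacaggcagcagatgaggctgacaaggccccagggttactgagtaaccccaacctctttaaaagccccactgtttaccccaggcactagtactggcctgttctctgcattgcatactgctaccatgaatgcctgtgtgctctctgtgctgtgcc
Guca2b: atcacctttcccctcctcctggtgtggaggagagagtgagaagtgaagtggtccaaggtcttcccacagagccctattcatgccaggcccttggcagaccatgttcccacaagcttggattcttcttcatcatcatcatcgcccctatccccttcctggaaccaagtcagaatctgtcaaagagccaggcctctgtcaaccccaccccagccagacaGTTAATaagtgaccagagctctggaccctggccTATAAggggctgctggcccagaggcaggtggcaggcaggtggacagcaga
The *Guca2a* window held the first motif 2 times in reverse orientation, starting at bases 107 and 131 of the 300, and neither of the others. The *Guca2b* window held GTTAAT at base 218 and TATAA at base 251, and no AGATAA. Of 32817 promoter windows of this length, 11.2% held AGATAA, 7.10% GTTAAT and 24.9% TATAA in either orientation, and a match is a description of the letters only.

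The genes that act after the receptor moved in both directions. *Prkg2*, the kinase activated by cyclic GMP in this pathway, was at 52.9, 50.1 and 36.8 normalised CPM in the positive and 9.35, 9.60 and 4.51 in the negative libraries, with no overlap (log2 fold change 2.58, adjusted p = 1.71e-05, edgeR). *Slc9a3*, the sodium-hydrogen exchanger that the pathway inhibits, was at 106, 83.3 and 39.2 against 12.0, 2.56 and 4.68 (log2 fold change 3.60, adjusted p = 1.70e-04). Its scaffold *Slc9a3r1* was also higher (log2 fold change 1.95, adjusted p = 3.88e-04), as was *Pde9a*, a phosphodiesterase that breaks down cyclic GMP (1.30, adjusted p = 0.00299, and 0.0554 without positive library 2). *Cftr*, the chloride channel that the pathway opens, went the other way, at 35.4, 25.6 and 38.3 normalised CPM in positive and 93.5, 67.7 and 97.6 in negative cells. Every positive library lay below every negative one, and the log2 fold change was -1.38 ± 0.37 (adjusted p = 0.0118, and 0.0796 without positive library 2). *Gucy2c* was present in both sorts and the least changed of these called genes, at 107, 123 and 85.8 against 60.6, 65.9 and 48.5 normalised CPM (log2 fold change 0.85, adjusted p = 0.0257). Its call was lost without any 1 of positive libraries 1 and 2 and negative libraries 2 and 3, the largest adjusted p being 0.179. With all libraries kept, *Gucy2c* also missed the threshold with library size alone (0.106), without a filter on low counts (0.0960) and with the colon libraries alone (0.0794).

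**Figure D2:**
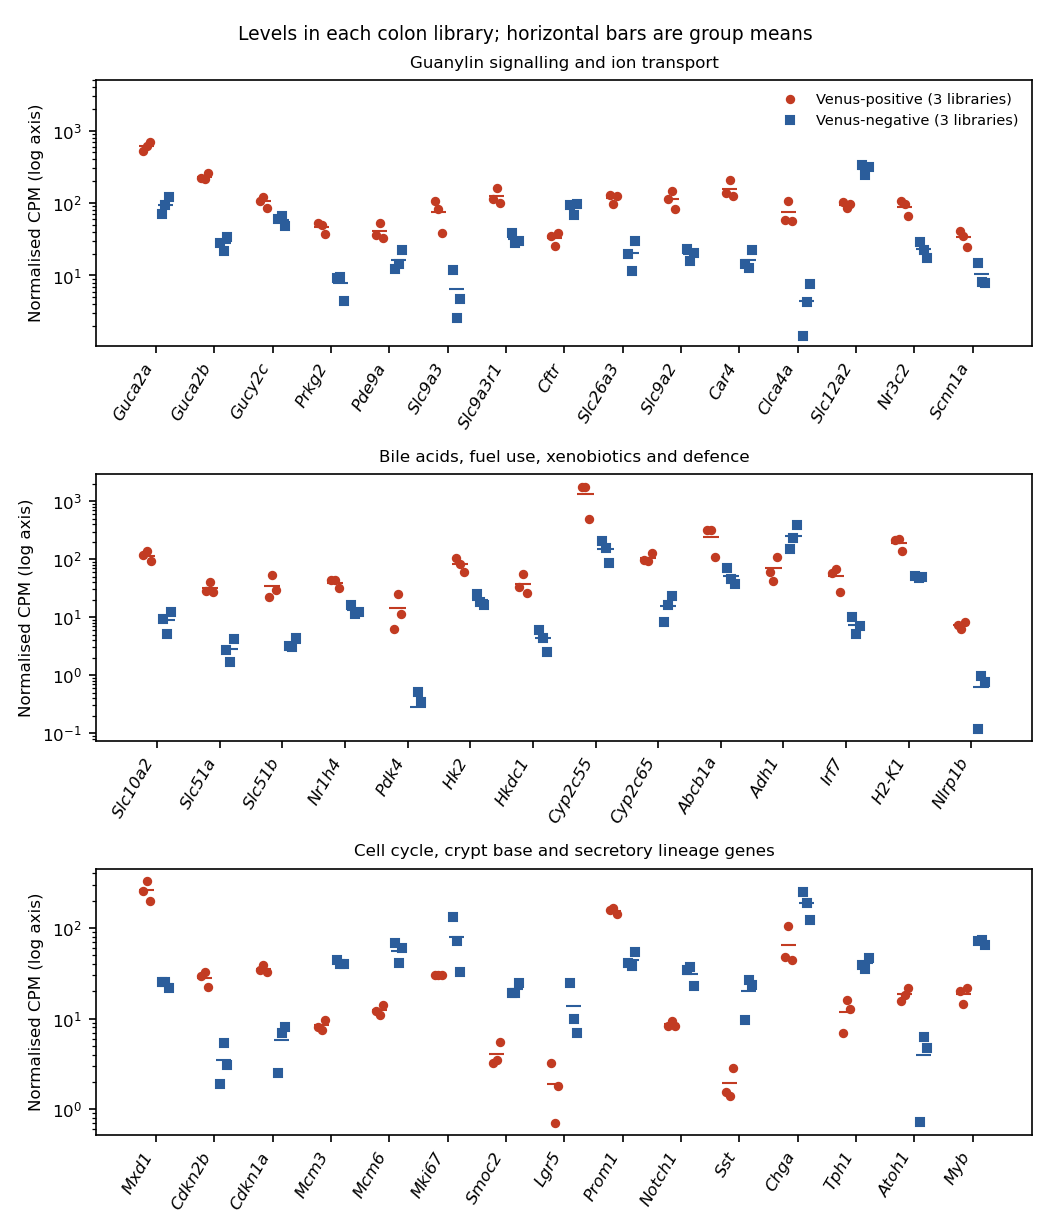
Normalised CPM (log axis) of 44 genes in each of the 3 Venus-positive (red circles) and 3 Venus-negative (blue squares) colon libraries, with bars at the group means; the negative library of *Pdk4* at 0 is not drawn. *Guca2a*, *Prkg2* and *Slc9a3* lie higher in all positive libraries, whereas *Cftr*, *Slc12a2*, *Mcm3* and *Sst* lie lower.

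Of 47 tested genes of ion and water transport 15 were higher and 3 lower, with a median log2 fold change of 0.67, or 0.61 with genes that had no count in a group set at their bound. When each library was left out, 9 of these 18 calls were kept. The absorptive genes included *Slc26a3*, the chloride-bicarbonate exchanger of surface colonocytes, at 129, 96.3 and 125 normalised CPM in positive and 19.9, 11.5 and 29.9 in negative cells. They also included *Slc9a2*, a further sodium-hydrogen exchanger, at 114, 149 and 81.6 against 23.5, 15.7 and 20.3, and the membrane-bound carbonic anhydrase *Car4* at 139, 206 and 124 against 14.6, 12.8 and 22.4. None of the 3 genes overlapped between the sorts, and their log2 fold changes were 2.51, 2.53 and 3.23, with adjusted p values of 7.73e-05, 6.55e-05 and 1.53e-04 (edgeR). *Clca4a*, of the calcium-activated chloride channel regulator family, had a log2 fold change of 4.03 (adjusted p = 0.00183), and *Nr3c2*, the mineralocorticoid receptor, one of 1.97 (adjusted p = 4.37e-05). *Scnn1a*, the alpha subunit of the epithelial sodium channel, was higher too (1.71, adjusted p = 0.00929, and 0.0581 without negative library 2). The abundant cytosolic carbonic anhydrase *Car1* was at 1347, 1108 and 1174 against 218, 74.1 and 175 normalised CPM, without overlap. Its adjusted p was nevertheless 0.0371, and leaving out any of the 6 libraries took it above the threshold (0.140 at most). The basolateral chloride loader *Slc12a2* (NKCC1), which supplies secreting cells, was lower with *Cftr*, at 104, 84.9 and 97.5 in positive and 330, 246 and 315 in negative cells (log2 fold change -1.64, adjusted p = 0.00481). The third gene that fell was *Kcnn4*, a calcium-activated potassium channel (log2 fold change -1.31, adjusted p = 0.0496). Its call did not hold without positive library 1, 2 or 3 or negative library 2 or 3, with an adjusted p of 0.207 at most.

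Of the lists, the brush border had the highest share of members called higher. Microvilli are held up by actin bundles cross-linked by villin, espin and plastin, and their tips are tied together by the protocadherins Cdhr2 and Cdhr5. Of 29 tested genes of this cytoskeleton 24 were higher and none lower, with a median log2 fold change of 1.60, and 20 of the 24 kept their call when each library was left out. *Krt20*, a keratin of differentiated surface cells, was at 367, 486 and 361 normalised CPM against 62.7, 40.1 and 46.9 (log2 fold change 3.02, adjusted p = 3.77e-06, edgeR). *Cdhr5* was at 362, 413 and 210 against 71.8, 40.7 and 39.0 (2.70, adjusted p = 4.14e-06), and *Cdhr2* at 323, 403 and 200 against 66.4, 47.3 and 36.5 (2.62, adjusted p = 1.71e-05). The sorts did not overlap for any of these 3 genes. The unconventional myosin gene *Myo15b* had a log2 fold change of 2.92 and *Mall*, a membrane raft protein, one of 2.64. Among the 7 tested keratins of the list only *Krt20* and *Krt8* were called, the latter at a log2 fold change of 0.93 (adjusted p = 0.0283) that no longer passed when any 1 library was left out (adjusted p of 0.130 at most), while *Krt18* was level between the sorts (log2 fold change -0.03).

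Of 16 tested membrane mucins and glycocalyx genes 11 were higher and none lower (median log2 fold change 1.91). The membrane mucin *Muc3* was at 616, 775 and 430 normalised CPM in positive and 158, 60.8 and 79.6 in negative cells (log2 fold change 2.61, adjusted p = 4.28e-05, edgeR), although reads of the near copy *Muc3a* may have been divided between them. *Ceacam20* (3.34, adjusted p = 6.87e-06) and *Ceacam1* (2.68, adjusted p = 2.54e-05), adhesion molecules of the apical membrane, rose with it. *Muc13*, abundant in both sorts, was at 468 to 614 against 152 to 222 normalised CPM (1.54, adjusted p = 0.00312). *Lypd8*, a secreted and lipid-anchored protein that keeps flagellated bacteria from the colonic mucosa, was at 1609, 2057 and 1440 against 343, 351 and 531 (2.06, adjusted p = 2.13e-04). At 1326 CPM per kb it had the highest level per length of all protein-coding genes of the nucleus in positive cells.

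Among brush border peptidases 7 of 20 were higher and 1 lower (median log2 fold change 0.60, and 0.54 with such bounds). The meprin gene *Mep1a* was at 144, 159 and 109 normalised CPM against 24.1, 18 and 19.7 (log2 fold change 2.73, adjusted p = 2.59e-06, edgeR), and *Dpep1*, a dipeptidase of the membrane, at 105, 116 and 100 against 14.5, 15.4 and 19.7 (2.69, adjusted p = 4.04e-05). *Ggt1*, a gamma-glutamyltransferase, and *Mep1b* rose by 2.84 and 2.52 on the log2 scale. *Dpp4*, which cleaves incretin hormones, was instead lower in positive cells, at 12.2, 10.8 and 16.9 against 34.0, 22.2 and 37.1 (log2 fold change -1.22, adjusted p = 0.0142). Without positive library 1 or 2 or negative library 3 the call for *Dpp4* was lost, at an adjusted p of 0.0875 at most.

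Among genes of bile acid recovery, *Slc10a2*, the sodium-dependent importer best known from the ileum, stood at 118, 136 and 91.4 normalised CPM in positive and 9.23, 5.13 and 12.1 in negative cells. The subunits of the basolateral exporter followed, *Slc51a* at 28.0, 39.6 and 27.4 against 2.76, 1.68 and 4.17, and *Slc51b* at 21.9, 52.9 and 29.1 against 3.24, 3.00 and 4.42. No positive library overlapped with a negative one, and the log2 fold changes were 3.71, 3.47 and 3.28, the largest of the adjusted p values being 4.20e-05 (edgeR). The bile acid receptor *Nr1h4* (FXR) was higher by 1.57 on the log2 scale (adjusted p = 3.45e-04), whereas the ileal bile acid binding protein *Fabp6* was at 4.56 to 10.1 against 1.83 to 7.91 normalised CPM and was not called. The genes *Slc51a* and *Slc51b* were added after their values had been seen.

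Of 35 tested genes of fatty acid oxidation and PPAR targets 13 were higher and none lower (median log2 fold change 0.66). Only 6 of the 13 kept their call when each library was left out, and 9 genes were called with library size alone. *Pdk4*, the kinase that turns pyruvate away from the mitochondrion, was at 6.34, 25 and 11.5 against 0, 0.513 and 0.340 (log2 fold change 5.48, adjusted p = 3.70e-05, edgeR), and the receptor *Ppara* itself was higher (1.98, adjusted p = 0.00380). For the peroxisomal thiolase *Acaa1b* the negative libraries held few counts in all, and the ratio of the group levels was 36.5, with a 95% counting interval of 12.2 to 179. Of 26 genes of lipid absorption and lipoproteins 9 were higher and 1 lower (median 1.0), led by the lipid droplet genes *Cidec* (5.0, adjusted p = 0.00101) and *Cideb* (2.83, adjusted p = 3.77e-06) and by *Dgat2*, which makes triglyceride (2.29, adjusted p = 7.49e-04). The gene that fell was *Slc27a2*, a very long chain acyl-CoA synthetase (log2 fold change -2.0, adjusted p = 0.00981, and 0.0790 at most without positive library 2 or negative library 2). Of 27 genes of cholesterol synthesis 1 was higher and none lower, a share of 3.70% that is below the 9.31% of all genes.

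Short-chain fatty acids are the main fuel that bacteria give the colonocyte. Of 16 genes of their uptake and of ketogenesis 1 was higher, 1 lower and 14 were not called (median log2 fold change 0.32). In 5 of the 16 every positive library lay above every negative one, and in 3 below. The monocarboxylate transporter *Slc16a1* was at 74.9 to 104 normalised CPM in positive and 46.0 to 75.3 in negative cells, and the sodium-coupled transporter *Slc5a8* at 49.7 to 82.1 against 67.8 to 106. *Slc16a5*, a further monocarboxylate transporter, was called higher (log2 fold change 1.70, adjusted p = 0.00276, edgeR) and *Acsm3*, a medium-chain acyl-CoA synthetase that also takes butyrate, lower (log2 fold change -1.89, adjusted p = 0.0207). The call for *Acsm3* was lost without positive library 1 or 2 or negative library 3 (adjusted p of 0.133 at most).

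Of 34 genes of glycolysis and the hypoxia response 14 were higher and none lower, with a median log2 fold change of 0.80. Of the 14, 7 kept their call when each library was left out, and 10 genes were called with library size alone. Hexokinase 2 (*Hk2*), which commits glucose to glycolysis, was at 106, 83.0 and 60.2 normalised CPM against 24.6, 18 and 15.9 (log2 fold change 2.09, adjusted p = 9.64e-05, edgeR), and the related *Hkdc1* at 32.6, 55 and 26.1 against 6.11, 4.39 and 2.55 (3.13, adjusted p = 2.84e-06). Neither gene overlapped between the sorts. The regulator *Pfkfb4* (2.48, adjusted p = 0.00116) and *P4ha1*, a collagen prolyl hydroxylase induced by low oxygen (2.84, adjusted p = 0.00825), were higher as well. By contrast none of 76 nuclear genes of oxidative phosphorylation was called in either direction, and their median was 0.05. None of 7 tested mitochondrially encoded protein genes was called either (median 0.28). DESeq2 also called none of either list.

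Of 66 tested genes that handle foreign compounds 25 were higher and 3 lower, with a median log2 fold change of 0.80, and 17 of the 25 kept their call when each library was left out. *Cyp2c55*, a cytochrome P450 of the colon, was at 1731, 1791 and 500 normalised CPM in positive and 202, 158 and 84.8 in negative cells (log2 fold change 3.18, adjusted p = 7.63e-04, edgeR). *Cyp4b1* was at 35.5, 32.7 and 28.8 against 0.599, 2.05 and 3.23 (4.00, adjusted p = 2.84e-06), and the carboxylesterase *Ces2c* at 64.2, 79.4 and 38.5 against 3.84, 7.18 and 5.95 (3.41, adjusted p = 2.59e-06). The efflux pump *Abcb1a* (P-glycoprotein) was higher at 313, 314 and 111 against 70.6, 44.8 and 36.8 (2.28, adjusted p = 4.44e-05) as was *Abcc3* at 134, 139 and 99.0 against 30.8, 34.3 and 32.9 (1.92, adjusted p = 7.49e-05). The alcohol dehydrogenase *Adh1* was lower, at 61.0, 41.6 and 107 against 150, 230 and 385 (log2 fold change -1.87, adjusted p = 0.00313). Members of the Cyp2c, Cyp2d, Cyp3a and Ces2 clusters are near copies, and reads that fit several of them were not counted, so the division of counts within these clusters is uncertain. By symbol, 13 of 39 genes named Cyp (33.3%) and 9 of 34 named Abc (26.5%) were higher and 1 of each lower, while none of 19 glutathione transferases was called in either direction.

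Of 33 amino acid and sugar transporters 9 were higher and none lower (median log2 fold change 0.65, and 0.48 with bounds). *Slc3a1* and *Slc7a9*, which together form the cystine and dibasic amino acid carrier of the apical membrane, were higher by 2.89 (adjusted p = 1.69e-04) and 2.52 (adjusted p = 2.15e-04, edgeR), *Slc7a9* at low levels of 2.70 to 2.78 against 0.360 to 0.595 normalised CPM. *Slc7a15* had no count in any negative library and 23 in the positive ones, and was at least 6.08-fold higher against a floor of 3 counts over the negative group. Of 29 genes for metals and vitamins 10 were higher and 1 lower (median 0.74). *Slc30a10*, an exporter of manganese, was at 21.6, 13.2 and 5.10 against 0.240, 0.879 and 0.935 (4.20, adjusted p = 2.02e-04). *Cubn*, the receptor for vitamin B12 bound to intrinsic factor, was at 9.58, 19.7 and 8.78 against 1.2, 1.32 and 0.765 (3.53, adjusted p = 2.58e-05), and the calcium-binding *S100g* was higher by 2.89 (adjusted p = 0.00115). The transferrin receptor *Tfrc*, which takes up iron from the blood side and is typical of dividing cells, was lower at 17.2, 24.4 and 24.7 against 50.8, 78.3 and 77.0 (log2 fold change -1.64, adjusted p = 0.00473). Of 23 genes of purine breakdown and nucleotide handling 7 were higher and 1 lower (median 0.02), among them *Xdh* (2.54, adjusted p = 3.85e-04) and *Gda* (2.65, adjusted p = 2.05e-04), which produce uric acid and xanthine. Over all 259 genes named Slc, 49 (18.9%) were higher and 12 (4.63%) lower.

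**Figure D3:**
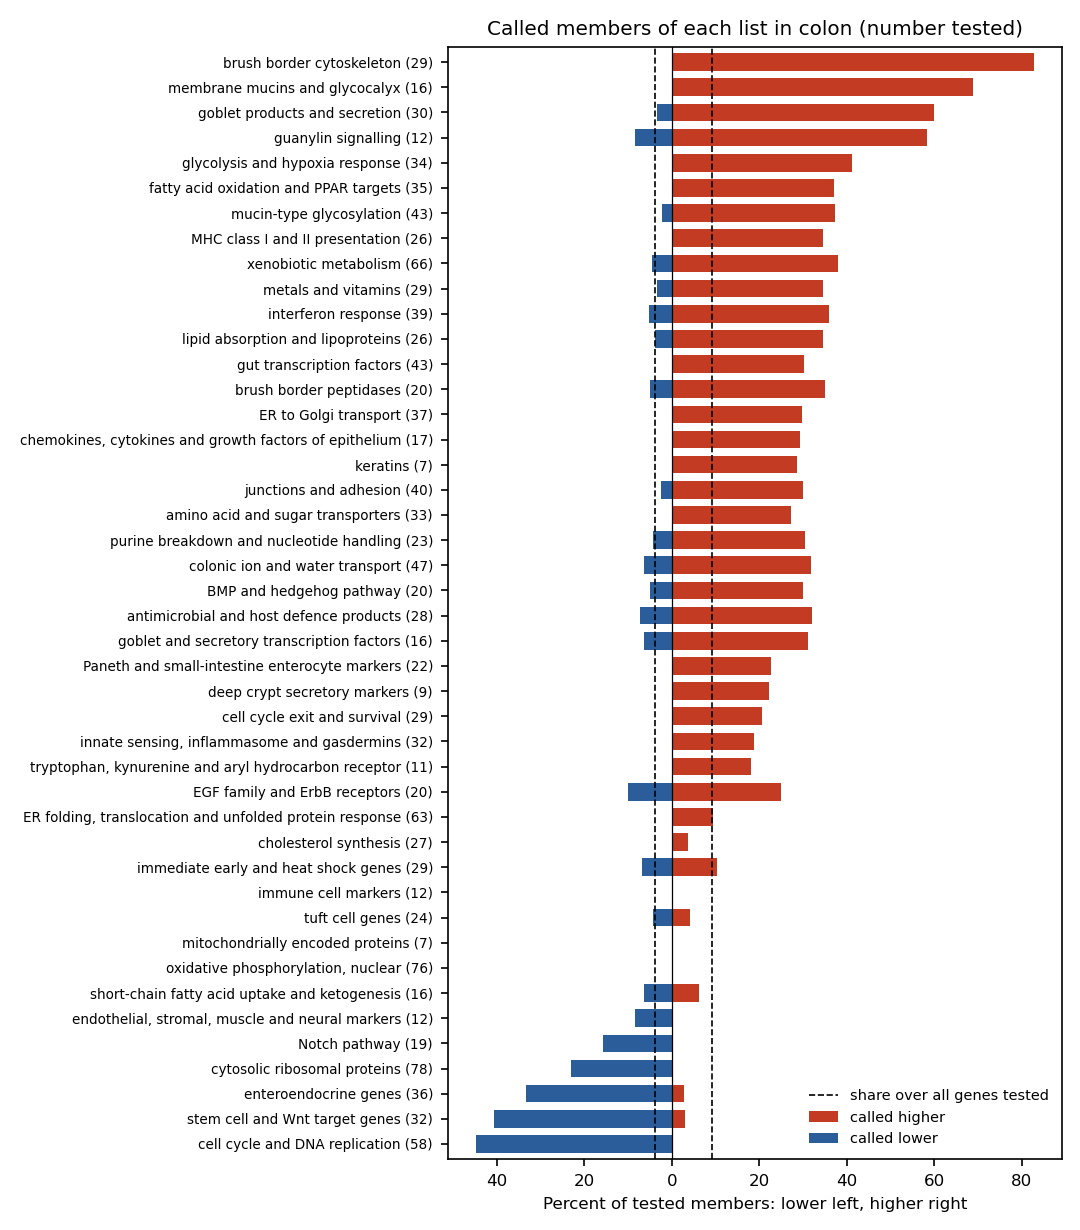
Share of the tested members of each gene list called higher (red, to the right) or lower (blue, to the left) in Venus-positive colon cells, in percent, with the number tested in brackets. Dashed lines mark the shares over all genes, 9.31% and 3.80%, and the brush border cytoskeleton has the longest red bar.

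Of 30 tested goblet products and secretion genes 18 were higher and 1 lower (median log2 fold change 1.75), and 14 of the 18 kept their call when each library was left out. The 18 include *Guca2a*, whose increase follows from the sort itself. *Muc2*, the gel-forming mucin of the colon, was at 623, 434 and 415 normalised CPM against 126, 80.4 and 58.9. *Fcgbp*, which is bound into the mucus, was at 1252, 696 and 1033 against 340, 350 and 156 (log2 fold change 1.82, adjusted p = 0.00390, edgeR), and *Agr2*, the disulfide isomerase needed for mucin folding, at 1108, 1517 and 1546 against 218, 528 and 270 (2.04, adjusted p = 8.19e-04). *Clca1*, a mucus protease, was at 903, 702.1 and 659 against 287, 519 and 180 (1.2, adjusted p = 0.0486). No overlap was seen for these genes, but the call for *Clca1* was lost without any 1 of the positive libraries or without negative library 1 or 3 (adjusted p of 0.0605 to 0.210). *Ccl6*, a chemokine, was at 360, 376 and 500.6 against 41.6, 70.8 and 65.7 (2.79, adjusted p = 1.04e-04), and *Sytl2*, a protein of secretory granule docking, was higher by 2.55 (adjusted p = 1.81e-04). *Agr3* was the gene that fell (log2 fold change -2.41, adjusted p = 0.010, and 0.0604 at most without positive library 1 or 2 or negative library 1).

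Of 43 tested genes of mucin-type glycosylation, whose enzymes build the sugar chains of mucins, 16 were higher and 1 lower (median log2 fold change 1.10). *Gcnt3*, which makes branched core structures, was at 174, 155 and 132 normalised CPM against 20.3, 32.5 and 41.0 (log2 fold change 2.30, adjusted p = 2.13e-05, edgeR). *Papss2*, which supplies activated sulfate, was at 132, 123 and 121 against 26.6, 21.9 and 34.6 (2.18, adjusted p = 4.44e-05), and *Galnt6*, which adds the first sugar, at 55.7, 58.9 and 49.6 against 15, 14.6 and 16.2 (1.84, adjusted p = 1.58e-05). None of the 3 overlapped between the sorts. *Gcnt1* and *Gal3st2* were higher by 3.03 and 2.30 at low levels, of 5.62 to 12.8 and 3.03 to 4.10 normalised CPM in positive cells, and with the colon libraries alone the adjusted p of *Gal3st2* was 0.102. Of 63 genes of folding, translocation and the unfolded protein response in the endoplasmic reticulum 6 were higher (9.52%) and none lower (median 0.28), a share close to that of all genes, and 1 of the 6 calls held whichever library was omitted. With library size alone 2 of the 63 were called higher. Of 37 genes of transport from the endoplasmic reticulum to the Golgi 11 were higher and none lower (median 0.46), among them the cargo receptor *Mia3* (1.27, adjusted p = 0.00174) and the coat subunit *Copb2* (1.22, adjusted p = 0.00107). Of these 11 calls 2 were kept when each library was left out, and 7 genes were called with library size alone.

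Of 16 transcription factors of goblet and other secretory cells 5 were higher and 1 lower (median log2 fold change 0.60). *Atoh1*, which commits cells to the secretory fate, was at 15.5, 18.1 and 21.9 normalised CPM against 0.719, 6.30 and 4.76 (log2 fold change 2.20, adjusted p = 0.00348, edgeR). *Spdef*, which drives goblet maturation, was at 24.3, 26.8 and 23.8 against 5.15, 7.91 and 4.34 (2.10, adjusted p = 0.00159), and *Klf4* at 162, 177 and 153 against 52.6, 45.3 and 24.8 (2.01, adjusted p = 3.33e-04). *Myb*, a factor of dividing crypt cells, was lower at 20.3, 14.4 and 21.9 against 71.5, 73.7 and 64.9 (log2 fold change -1.89, adjusted p = 0.00300). Positive and negative libraries did not overlap for any of the 4 genes. Of 9 markers of deep crypt secretory cells 2 were higher, *Spink4* and *Agr2*, both of which goblet cells also express. *Reg4*, the defining gene of those cells, was at 53.4, 28.2 and 169 against 16.9, 89.7 and 30.6, with overlapping groups (log2 fold change 0.87, adjusted p = 0.400).

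Of 39 tested genes of the interferon response 14 were higher and 2 lower (median log2 fold change 1.38), and 10 of the 14 kept their call when each library was left out. *Irf7*, which amplifies the response, was at 58.6, 67.4 and 26.7 normalised CPM in positive and 9.95, 5.05 and 7.14 in negative cells (log2 fold change 2.79, adjusted p = 4.39e-05, edgeR). *Ifit1* was at 9.27, 15.9 and 4.00 against 0.240, 0.659 and 0.425 (4.36, adjusted p = 9.75e-05), and *Ifit3*, with no count in the negative libraries, was at least 7.93-fold higher. The 2 that fell were the membrane protein *Ifitm3*, at 1.70, 0.779 and 1.10 against 1.92, 9.30 and 8.67 (log2 fold change -2.49, adjusted p = 0.00739, and 0.0537 without positive library 2), and *Irf8* (log2 fold change -1.03, adjusted p = 0.0313, and 0.174 at most without positive library 1 or 3 or negative library 1). All 9 called genes among 26 of MHC presentation were higher and belonged to class I or its loading (median of the list 1.28, and 1.05 with bounds). *H2-K1* was at 210, 226 and 141 against 50.9, 48.0 and 49.5 (1.96, adjusted p = 2.08e-04) and *H2-D1* at 156, 171 and 117 against 45.2, 53.2 and 63.9 (1.45, adjusted p = 0.00312), and *H2-Q1* and *H2-Q2* were higher by 2.18 and 2.11. These genes have close relatives, and counts may be divided among them.

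Of 32 genes of innate sensing, inflammasomes and gasdermins 6 were higher and none lower (median log2 fold change 0.50). Of these 6 calls 3 were kept when each library was left out, and 3 genes were called with library size alone. *Nlrp1b* was at 7.19, 6.16 and 8.39 normalised CPM against 0.120, 0.952 and 0.765 (log2 fold change 3.46, adjusted p = 1.01e-05, edgeR), and *Naip1*, a sensor of bacterial secretion systems, at 46.9, 59.1 and 30.6 against 5.03, 8.2 and 10.2 (2.53, adjusted p = 1.58e-05). Of 28 antimicrobial and host defence products 9 were higher and 2 lower (median 1.28, and 1.01 with bounds), and 5 of these 11 calls were kept in the same way. *Sprr1a*, a small proline-rich protein, was at 11.7, 10.7 and 4.45 against 0, 0.439 and 0.680 (4.48, adjusted p = 0.00173), and *Reg3b*, a lectin that kills bacteria, at 195, 266 and 147 against 21.6, 26.2 and 41.5 (2.77, adjusted p = 0.00346). *Duox2*, which makes hydrogen peroxide at the apical membrane, was at 75.5, 132 and 45.1 against 16.7, 17.4 and 13.6 (2.41, adjusted p = 0.0111, and 0.0937 without positive library 2). The related oxidase *Nox1* was lower, at 2.55, 1.77 and 9.10 against 19.9, 27.5 and 79.0 (log2 fold change -3.23, adjusted p = 0.0244, and 0.0565 with DESeq2), and so was the glutathione peroxidase *Gpx2* (log2 fold change -1.81, adjusted p = 0.0106). Without positive library 1 or 2 or negative library 3 neither held, with adjusted p values of up to 0.155 and 0.0735. Of 17 epithelial chemokines, cytokines and growth factors 5 were higher and none lower (median 0.41), and 2 of the 5 kept their call when each library was left out. Of 11 genes around tryptophan and the aryl hydrocarbon receptor 2 were higher, *Ido1* and *Slc36a4* (median 0.22). The butyrophilin-like genes *Btnl1*, *Btnl4* and *Btnl6*, which support intraepithelial lymphocytes, were looked at after their values were seen. They were higher by 2.04, 2.44 and 3.72, with adjusted p values of 6.09e-05, 2.80e-06 and 2.25e-07.

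Of 58 tested genes of the cell cycle and DNA replication none was higher and 26 were lower (44.8%, against 3.80% of all genes), with a median log2 fold change of -1.38, and 56 of the 58 had a negative sign. DESeq2 called 36 of the 58, and 13 of the 26 edgeR calls were kept when each library was left out. *Mcm3*, a subunit of the replicative helicase, was at 8.04, 7.50 and 9.68 normalised CPM in positive and 44.0, 39.6 and 39.9 in negative cells (log2 fold change -2.29, adjusted p = 6.75e-05, edgeR). *Mcm6* was at 12.1, 11 and 14.3 against 68.2, 41.1 and 59.4 (-2.17, adjusted p = 1.04e-04), and *Mcm5* and the licensing factor *Cdt1* had log2 fold changes of -2.18 and -2.12. The sorts did not overlap for these genes. *Mki67*, the usual marker of cycling cells, was at 30.1, 30.0 and 30.1 against 131, 72.3 and 32.8, so that negative library 3 came close to the positive ones (log2 fold change -1.38, adjusted p = 0.0275, and 0.251 at most without any 1 positive library or negative library 1). Of 58 protein-coding genes named Hist, the replication-dependent histones and their relatives, 31 (53.4%) were lower and none was higher. *Hist1h2ak* was at 21.9, 29.6 and 24.7 against 68.4, 104 and 66.8 (log2 fold change -1.65, adjusted p = 0.00425), and *Hist1h2bm* at 4.17, 2.41 and 2.52 against 17.5, 12.3 and 5.19 (-1.94, adjusted p = 0.00373). Histone genes are short and resemble each other, so single members are less certain than the family.

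Of 78 genes of cytosolic ribosomal proteins 18 were lower (23.1%), none was higher and 60 were not called, with a median log2 fold change of -1.01, 74 had a negative sign, and DESeq2 called 39. When 1 library at a time was omitted, only 2 of the 18 kept their call at every step. *Rpl27* was at 1.31, 1.27 and 2.52 normalised CPM against 13.7, 4.76 and 6.55 (log2 fold change -2.27, adjusted p = 0.00436, edgeR), and the more abundant *Rplp1* at 350, 305 and 477 against 643, 727 and 758 (-0.91, adjusted p = 0.102). These genes have many processed pseudogenes and reads that fit both were discarded, so their levels are understated. The nucleolar genes *Nop56*, *Npm1* and *Nat10*, picked after their values were seen, were lower with log2 fold changes of -1.92, -1.78 and -1.55 (adjusted p = 6.87e-05, 0.00141 and 0.00707). *Nop56* stood at 4.10, 4.96 and 5.10 against 16.7, 18.4 and 18.7.

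Of 32 tested stem cell and Wnt target genes 13 were lower, 1 was higher and 18 were not called (median log2 fold change -1.34). Leaving out each library in turn, 7 of the 14 calls were kept. *Smoc2*, a gene of the crypt base, was at 3.25, 3.47 and 5.49 normalised CPM in positive and 19.2, 19.3 and 24.8 in negative cells (log2 fold change -2.37, adjusted p = 6.75e-05, edgeR). *Lgr5*, the receptor that marks stem cells, was at 3.25, 0.708 and 1.81 against 24.6, 10.0 and 6.89 (-2.84, adjusted p = 0.00940, and 0.0714 at most without positive library 2 or negative library 1). *Cdca7* was lower (-2.07, adjusted p = 5.08e-04), as was *Ephb3*, an Eph receptor that positions cells in the crypt (-1.86, adjusted p = 0.00348). The gene called higher was *Prom1* (CD133), at 156, 166 and 143 against 40.9, 38.3 and 54.0, with no overlap (1.80, adjusted p = 1.39e-05). Of 19 Notch genes 3 were lower and none higher (median -0.34), *Notch1* at 8.34, 9.34 and 8.26 against 33.9, 37.1 and 22.8 (-1.85, adjusted p = 0.00261), *Dtx4* (-1.69, adjusted p = 0.00282) and *Lfng* (-1.56, adjusted p = 0.0398). The call for *Lfng* was lost without any 1 positive library or without negative library 2 or 3 (adjusted p of 0.187 at most).

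Of 29 genes of cell cycle exit and survival 6 were higher and none lower (median log2 fold change 0.33), and 3 of the 6 kept their call when each library was left out. *Mxd1*, which opposes Myc, was at 257, 329 and 197 normalised CPM against 25.4, 25.3 and 22 (log2 fold change 3.43, adjusted p = 2.65e-06, edgeR). The cyclin-dependent kinase inhibitors *Cdkn2b* (p15) and *Cdkn1a* (p21) were at 29.7, 32.3 and 22.2 against 1.92, 5.42 and 3.06 and at 34.5, 39.0 and 32.7 against 2.52, 6.96 and 8.08. Their log2 fold changes were 2.99 (adjusted p = 2.59e-06) and 2.58 (adjusted p = 4.87e-06), and none of the 3 genes overlapped. *Myc* itself was at 3.86, 3.82 and 8.07 against 26.6, 16.5 and 15 (-1.87, adjusted p = 0.0285, and 0.134 at most without positive library 1 or 2 or negative library 1). Among 29 immediate early and heat shock genes, which respond to handling and digestion of tissue, 3 were higher and 2, *Myc* and *Hsp90aa1*, lower (median -0.03), and 1 of these 5 calls held whichever library was omitted. The call for *Hsp90aa1* was lost without positive library 2 or 3 or negative library 1 or 3 (adjusted p of 0.211 at most).

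**Figure D4:**
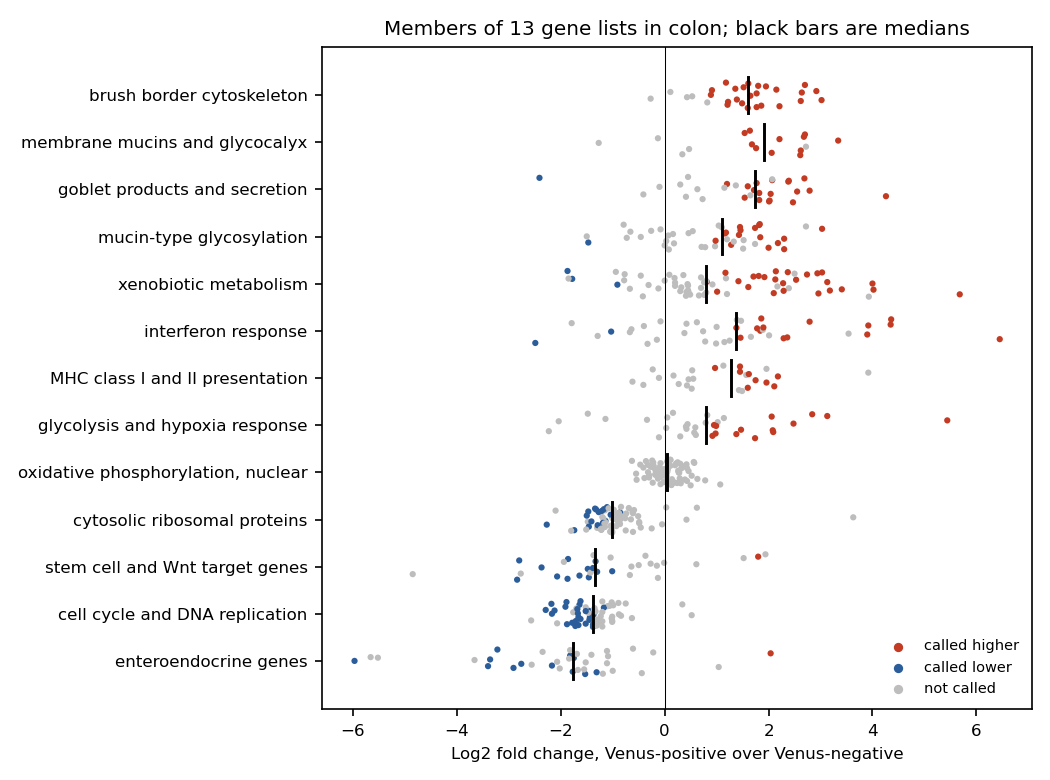
Log2 fold change of every tested member of 13 gene lists in colon, with points coloured by call and black bars at the medians. The medians of the brush border (1.60), mucin (1.91), mucin-type glycosylation (1.10) and xenobiotic lists (0.80) lie to the right of 0, with 53 of 66 xenobiotic genes above it, that of oxidative phosphorylation near 0 (0.05), and those of the ribosomal, stem cell, cell cycle and enteroendocrine lists to the left.

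Of 43 gut transcription factors 13 were higher and none lower (median log2 fold change 0.70), and 8 of the 13 kept their call when each library was left out. *Maf* was at 7.49, 6.16 and 8.2 normalised CPM against 0.839, 1.10 and 0.255 (log2 fold change 3.29, adjusted p = 2.80e-06, edgeR). *Hnf4a*, a master regulator of absorptive genes, was at 184, 253 and 177 against 93.7, 91.6 and 72.2 (1.25, adjusted p = 0.00342). *Osr2* was higher by 2.07 (adjusted p = 4.80e-04). *Gata4*, a factor of the small intestine, was higher by 2.49 but at no more than 1.63 normalised CPM (adjusted p = 0.00243, and 0.174 with the colon libraries alone). *Cdx2*, which sets intestinal identity, was not called (37.4 to 66.8 against 29.2 to 43.3). None of 20 Hox genes was called in either direction. Of 324 genes named Zfp, zinc finger proteins, 2 were higher and 7 lower, shares of 0.617% and 2.16%, both below those of all genes.

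Of 20 genes of the EGF family and its receptors 5 were higher and 2 lower (median log2 fold change 0.59), of which 2 calls held whichever library was omitted. The receptors *Erbb2* (78.7, 109 and 62.2 against 36.3, 34.1 and 19.5 normalised CPM) and *Erbb3* (176, 231 and 128 against 84.5, 71.4 and 47.8) were higher by 1.48 (adjusted p = 7.49e-04, edgeR) and 1.4 (adjusted p = 0.00413, and 0.0545 without positive library 2). The feedback inhibitor *Errfi1* was higher by 1.70 (adjusted p = 0.00290). The ligand *Tgfa* was higher by 1.36 (adjusted p = 0.00486, and 0.0528 without positive library 2) and the ligand *Btc* lower (-2.01, adjusted p = 0.0380, and 0.247 at most without positive library 1 or 2 or negative library 1 or 3). Of 20 genes of the BMP and hedgehog pathways 6 were higher and 1 lower (median 0.63), but none of these 7 calls held at every step of leaving out a library. *Bmp3* was at 125, 84.5 and 69.6 against 29.7, 16.9 and 18.1, without overlap (2.11, adjusted p = 0.0188, and 0.0863 at most without positive library 1 or 2 or negative library 2 or 3). *Smo*, the transducer of hedgehog signals, was at 3.71, 2.83 and 6.71 against 11, 17.1 and 24.8 (-2.0, adjusted p = 0.00958, and 0.0738 at most without positive library 1 or 2 or negative library 3). Of 40 genes of junctions and adhesion 12 were higher and 1 lower (median 0.79), and 5 of these 13 calls held in the same way. The laminin subunits *Lama3* (41.0, 87.4 and 32.3 against 2.16, 4.61 and 1.62) and *Lamb3* were higher by 4.23 (adjusted p = 1.15e-05) and 2.46 (adjusted p = 2.38e-04), and the desmosomal cadherin *Dsg2*, at 294, 342 and 210 against 108, 79.8 and 78.4, by 1.67 (adjusted p = 1.01e-04). The integrin *Itga6*, which binds laminin, was lower (-0.83, adjusted p = 0.0264, and 0.183 at most without positive library 2 or 3 or negative library 1).

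Of 36 tested enteroendocrine genes 12 were lower, 1 was higher and 23 were not called (33.3% and 2.78% called), with a median log2 fold change of -1.76, and 34 had a negative sign, but 3 of the 12 kept their call when each library was left out. Those 3 were *Sst*, the gene of somatostatin, *Tph1*, which makes serotonin, and *Cpe*, which processes prohormones. *Sst* was at 1.55, 1.42 and 2.84 normalised CPM in positive and 9.71, 26.9 and 23.5 in negative cells (log2 fold change -3.36, adjusted p = 1.42e-04, edgeR). *Tph1* was at 6.88, 16 and 12.7 against 39.4, 35.4 and 46.7 (-1.77, adjusted p = 0.00155), and *Cpe* at 1.31, 0.779 and 1.10 against 5.63, 7.91 and 8.08 (-2.76, adjusted p = 9.22e-04). The granule protein *Chga* was at 48.1, 104 and 44.1 against 251, 190 and 123 (-1.53, adjusted p = 0.0405, and 0.167 at most without positive library 1 or 3 or negative library 1 or 2). *Insl5*, a hormone of the distal colon, was at 1.31, 0.991 and 2.19 against 4.43, 25.8 and 11.8 (-3.22, adjusted p = 0.0395, and 0.491 with DESeq2). Leaving out negative library 2 or 3 or any 1 positive library ended the call for *Insl5* (adjusted p of 0.229 at most). The gene that rose was *Nts*, the gene of neurotensin, at 10.4, 14.2 and 5.74 against 0.959, 5.57 and 0.510 (2.04, adjusted p = 0.0298, and 0.156 at most without positive library 1 or 2 or negative library 1 or 3). Of 24 tuft cell genes 1 was higher and 1 lower by edgeR (median -1.10), 1 higher and 5 lower by DESeq2, and 5 had a positive sign. The tuft markers *Dclk1* (5.02, 6.58 and 7.88 against 13.3, 18.2 and 6.21) and *Trpm5* (2.86, 3.61 and 3.81 against 5.39, 15.5 and 4.76) were not called. Of 22 Paneth and small-intestine enterocyte markers, which the colon should largely lack, 5 were higher and none lower (median 0.92). They were *Slc10a2*, *Rbp2*, *Sis*, *Alpi* and *Fabp2*, of which *Sis* was at 18.5, 17.1 and 16.4 against 3.95, 3.96 and 3.83 (2.15, adjusted p = 6.55e-05). The calls for *Alpi* and *Fabp2* were each lost without positive library 2 or 3 or negative library 2 or 3, and that for *Fabp2* also without negative library 1 (adjusted p of at most 0.182 and 0.243). With all libraries kept, *Alpi* was not called by DESeq2 (0.0895) or with the colon libraries alone (0.150), and neither gene was with RLE factors (0.0578 and 0.0516) or library size alone (0.0534 and 0.0563).

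The order of levels differed between the sorts. Among protein-coding genes of the nucleus, the 8 with the highest level per length in positive cells were *Lypd8* (1326 CPM per kb), *Phgr1* (1165), *Agr2* (1077), *Guca2a* (1030), *Spink4* (1018), *Car1* (969), *Lgals4* (869) and *Rplp1* (756). In negative cells *Rplp1* came first at 1422 CPM per kb, before *Mptx1* (751), *Lgals4* (688), the histones *Hist2h2bb* (578) and *Hist1h1b* (495), and *Rpl8* (482). In positive cells the standard deviations over 3 libraries were 248 CPM per kb for *Lypd8*, 278 for *Phgr1*, 190 for *Agr2*, 161 for *Guca2a*, 197 for *Spink4*, 98.9 for *Car1* and 351 for *Lgals4*, so that the order among neighbours in this ranking was not resolved. For the negative cells, in the order given, they were 119, 907, 209, 212, 123 and 187 CPM per kb, and that order was not resolved either. The place of *Mptx1* rested on negative library 2. *Mptx1*, a pentraxin of the gut, was at 253, 750 and 351 normalised CPM in positive and 199, 1437 and 165 in negative cells and was not called. The lectin gene *Lgals4* was at 1501, 1586 and 2950 against 1172, 1486 and 2123, also not called. *Krt19*, a keratin of simple epithelia, was high and level in both sorts, at 445 and 341 CPM per kb. Further genes among the 15 highest in both sorts were *Ankrd60* and *Mroh6*, neither of them called (log2 fold changes 0.09 and -0.38).

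The genes with the largest fitted changes were mostly at the edge of detection. Of the 15 protein-coding genes with the largest increase among those whose groups did not overlap, 11 had no count in any negative library, namely *Ankrd29*, *Slc30a1*, *Apol9a*, *Bglap3*, *D6Ertd527e*, *Itga2b*, *Ifit3*, *Slc7a15*, *Syt12*, *Zmat4* and *Drc1*. They were at least 5.29-fold (*Drc1*) to at least 13.2-fold (*Ankrd29*) higher, against a floor of 3 counts over the negative group. The other 4 were *Dnase1l2*, *Ak4*, *Rhbdl3* and *Cyp2d9*, with ratios of 102, 59.0, 71.4 and 53.9 and lower bounds of the 95% counting interval of 17.9, 19.9, 12.5 and 14.6. Of these 15 genes, 5 kept their call whichever library was left out, *Apol9a*, *Bglap3*, *Ifit3*, *Dnase1l2* and *Slc7a15*. Of the 15 with the largest decrease, 2 kept theirs, *Col4a1* and *Lrp11*. *Col4a1*, a collagen of basement membranes, had no count in the positive libraries and was at 3.95, 2.49 and 1.96 normalised CPM in the negative ones, at least 37.8-fold lower in positive cells. *Npas3* was at 82.3, 1.17 and 1.79 in the negative and at most 0.387 in the positive libraries, and without negative library 1 its adjusted p was 0.348.

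The last comparison asked whether the difference between the sorts was of another size in the colon than in the small intestine, where Venus-positive and Venus-negative cells were collected from duodenum, jejunum and ileum in 9 libraries of each sort. By the study's own counts the regions differed in how many cells were Venus-positive and in their make-up. Those of the duodenum were few and mostly Paneth and goblet cells. A smaller share of goblet cells was Venus-positive in the colon than in the small intestine. The part of this make-up in the differences below was not tested. The log2 fold change of the colon was larger than the mean of the 3 small intestinal segments for 414 genes and smaller for 207, which is 2.75% and 1.38% of the genes tested. Against the ileum alone it was larger for 190 and smaller for 229 (1.26% and 1.52%). Leaving out 1 library at a time gave 276 to 1059 genes against the small intestine, in place of 621. Against the ileum it gave 183 to 660, in place of 419. With DESeq2 the numbers were 1076 and 857. *Guca2a* and *Guca2b* were not among the genes that passed in edgeR. Their colonic log2 fold changes were 2.69 and 3.03, and the small intestinal ones 3.75 and 3.96. The differences were -1.07 ± 0.37 and -0.93 ± 0.35 (standard errors), with adjusted p values of 0.0976 and 0.130 (edgeR interaction contrast). *Krt20* differed by 0.02 ± 0.40.

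Of the gene lists, the nuclear genes of oxidative phosphorylation held the highest number of differences from the small intestine, though not the highest share of members. For 25 of the 76 the log2 fold change was larger in the colon and for none smaller (median difference 1.06), but against the ileum alone only 1 passed (median difference 0.75). None of them was called between the sorts of the colon itself. Of 78 cytosolic ribosomal protein genes 13 had a larger and none a smaller log2 fold change than in the small intestine (median difference 1.17), and none passed against the ileum (1.07). Higher shares were found for the goblet products described below and for 2 further lists. Of 22 Paneth and small-intestine enterocyte markers 10 were smaller in the colon than in the small intestine, and 12 than in the ileum. Of 20 brush border peptidases 8 were smaller in each comparison, and no member of either list was larger. Against the ileum, 10 of 33 amino acid and sugar transporters were smaller and 1 larger.

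Of the 30 tested goblet products and secretion genes 16 had a smaller log2 fold change in the colon than in the small intestine, and 8 did against the ileum alone. *Guca2a*, which is counted in the 30, passed in neither contrast. The log2 fold change of *Clca1* was 1.2 in the colon and 5.49 in the small intestine (difference -4.29 ± 0.50, adjusted p = 6.68e-06, edgeR), and that of *Zg16*, a lectin of the mucus, 1.72 and 5.59 (difference -3.86, adjusted p = 1.32e-05). *Fcgbp* (difference -3.32), *Muc2* (-3.01), *Tff3* (-2.56) and *Spink4* (-2.40) went the same way, the largest adjusted p being 0.0180. Against the ileum alone *Spink4* did not pass (adjusted p = 0.160), and *Agr2* passed neither test (0.162 against the small intestine and 0.572 against the ileum). The difference of *Spink4* from the small intestine was lost without colon positive library 1 or 2 or colon negative library 2 (adjusted p of 0.131 at most, edgeR). *Muc2* was at 4.00 to 19.8 normalised CPM, with a median of 9.41, in the negative cells of the small intestine, against 58.9 to 126 in those of the colon, while the positive cells of the small intestine covered 111 to 2156. *Ramp1*, a partner of the calcitonin receptor-like receptor, was higher in positive cells of both, by 1.69 in the colon and 4.93 in the small intestine (difference -3.25, adjusted p = 1.68e-04).

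Of 47 genes of ion and water transport 6 had a larger log2 fold change in the colon than in the small intestine and none a smaller one, and against the ileum alone 3 were larger and 1 smaller. *Car4* was higher in positive cells by 3.23 in the colon, and in the small intestine its log2 fold change was -0.85 (difference 4.08 ± 0.62, adjusted p = 2.28e-04, edgeR). *Slc26a3* had log2 fold changes of 2.51 and 0.27 (difference 2.24, adjusted p = 0.00379). *Prkg2*, from the guanylin signalling list, had 2.58 and 0.68 (difference 1.89, adjusted p = 0.00591). Against the ileum alone the differences of these genes did not pass, with adjusted p values of 0.292 for *Car4*, 0.667 for *Slc26a3* and 0.118 for *Prkg2*. The absorptive genes *Slc9a3*, *Slc9a2*, *Clca4a*, *Car1* and *Nr3c2* did not pass against the small intestine (adjusted p of 0.102 to 0.686). For *Slc5a8*, from the short-chain fatty acid list, the difference was in the other direction (-2.87, adjusted p = 0.00367). Outside the lists, *Plet1*, at 69.8, 74.0 and 57.8 against 5.87, 6.81 and 2.72 normalised CPM in the colon, was at no more than 0.643 in any small intestinal library (difference 5.03, adjusted p = 1.91e-04). *Slc8a1*, a sodium-calcium exchanger, was at 41.7, 43.2 and 31.4 against 0.479, 7.69 and 6.55, and at no more than 4.25 in the small intestine (difference 6.30, adjusted p = 1.39e-04).

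Of the 621 genes whose difference from the small intestine passed, 302 had log2 fold changes of opposite sign in the colon and in the small intestine. Of these, 88 were called in the colon and 42 of the 88 also passed against the ileum alone. The 4 described here were picked from them after their values were seen. The interaction contrast tests their difference, and the sign in the small intestine alone was not tested. *Prom1* was higher in positive cells of the colon by 1.80 and had a log2 fold change of -1.36 in the small intestine (difference 3.16 ± 0.29, adjusted p = 1.02e-07, edgeR), where its positive libraries covered 6.84 to 52.0 normalised CPM and the negative ones 40.6 to 61.5. *Adra2a*, an adrenergic receptor, was at 24.3, 28.2 and 18.9 against 3.36, 6.45 and 6.46 normalised CPM in the colon, and its log2 fold changes were 2.12 and -1.96 (difference 4.08, adjusted p = 1.32e-05), with 0.223 to 9.73 against 2.81 to 7.79 normalised CPM in the small intestine. *Bmp3* had 2.11 and -2.58 (difference 4.69, adjusted p = 3.66e-04), with 0.279 to 11.6 against 5.26 to 33.0. *Dpp4* had -1.22 in the colon and 1.81 in the small intestine (difference -3.04, adjusted p = 2.97e-05), where its positive libraries covered 39.9 to 803 normalised CPM (median 614) and the negative ones 41.6 to 165 (median 82.8). In the small intestine, over its 3 segments, the sorts overlapped for all 4 genes. The 4 genes also differed from the ileum alone, with adjusted p values of 1.92e-06, 5.64e-05, 0.00898 and 1.92e-06.

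Of 36 tested enteroendocrine genes 10 had a larger log2 fold change in the colon than in the small intestine and none a smaller one, whereas against the ileum alone none was larger and 2 were smaller, among them *Insl5* (adjusted p = 0.0389, edgeR), which was at no more than 1.08 normalised CPM in any small intestinal library. The log2 fold change of *Chga* was -1.53 in the colon and -4.15 in the small intestine (difference 2.62, adjusted p = 0.00879, edgeR), that of *Chgb* -1.75 and -4.67 (difference 2.93, adjusted p = 0.00591), and that of *Tph1* -1.77 and -3.70 (difference 1.93, adjusted p = 0.00955). Against the ileum alone none of these 3 passed (adjusted p of 0.0892, 0.124 and 0.154), and *Sst* and *Cpe* did not pass against the small intestine (0.182 and 0.104). Without colon positive library 2 the differences of *Chga* and *Tph1* from the small intestine were lost. That of *Tph1* was also lost without colon negative library 2 (adjusted p of at most 0.0718 for *Chga* and 0.0772 for *Tph1*, edgeR). Positive cells held 44.1 to 104 normalised CPM of *Chga* in the colon and 2.36 to 16.8 in the small intestine. *Cd44*, a Wnt target of the crypt, was lower by less in the colon too, at 31.4, 29.2 and 23.2 against 80.1, 76.4 and 77.6 (difference 1.87, adjusted p = 0.00649). Of 32 stem cell and Wnt target genes 4 had a larger log2 fold change in the colon than in the small intestine and 7 than in the ileum, with none smaller (median differences 0.52 and 1.12). Of 58 genes of the cell cycle and DNA replication 3 and 5 did, again with none smaller (1.19 and 1.46). Single genes of these lists, *Mcm3* (difference 0.75 ± 0.41) and *Lgr5* (0.50 ± 0.82), did not pass when set against the small intestine (adjusted p of 0.316 and 0.799), and neither did *Cftr* (0.09 ± 0.42, adjusted p = 0.955).

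**Figure D5:**
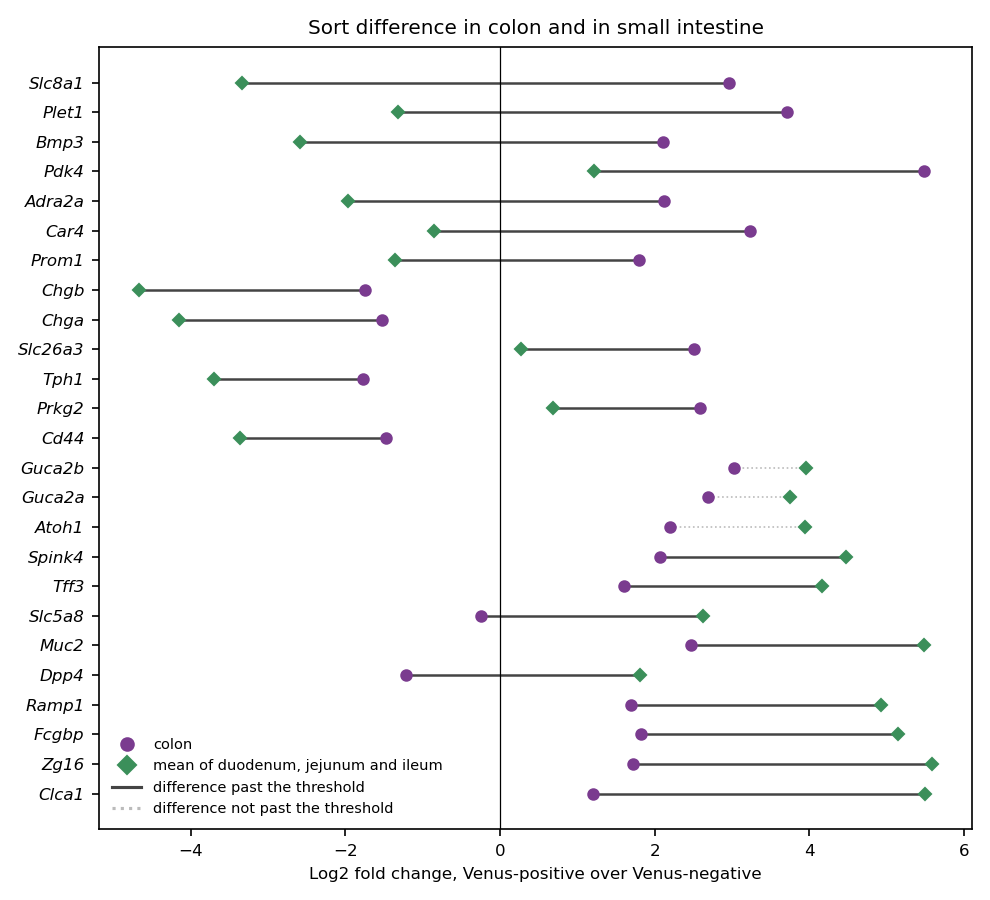
Log2 fold change between Venus-positive and Venus-negative cells in the colon (purple circles) and as the mean of the 3 small intestinal segments (green diamonds) for 25 genes. Solid lines join pairs whose difference passed the test and dotted lines those that did not, and goblet genes such as *Clca1* lie further right in the small intestine while *Car4* and *Prom1* lie further right in the colon.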

How the data were processed

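RNA of sorted cells was sequenced with the SMARTer Pico V2 kit, and the authors aligned single-end reads with STAR (2.5.1 in the submitters' processing notes) to GRCm38. The deposited values are raw counts per gene. Annotation release and strand setting are not given in the sources used here, so overlapping and antisense genes cannot be told apart. Summary rows of the table (unmapped, multimapping, no feature, ambiguous) were removed. Multimapping reads came to 18.4% to 22.6% of the gene counts plus these rows in colon. Counts of all 24 libraries were fitted with edgeR 4.0.16 (TMM, quasi-likelihood test, R 4.3.3) as 8 groups of tissue and sort, after filtering with a minimum count of 10 and a total of 15. The contrast was colon positive minus negative, with Benjamini-Hochberg adjustment over 15044 genes and a threshold of 0.05. The difference from the small intestine or ileum was an interaction contrast. Because the spread is shared, libraries of other tissues affect the colon p-values. Scripts were tested on simulated data, in which 200 genes were changed 4-fold in the colon positive libraries and every gene had a dispersion of 0.185. There edgeR recovered 94 of the 200, with 2 false calls among 96. DESeq2 recovered 107, with 15 false calls among 122 (12.3%). A gene that was not called may thus still differ between the sorts.

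Alternatives were DESeq2 1.42.0, RLE or plain library sizes, other filters, protein-coding genes alone, the i5 index as a covariate, compared libraries alone, stricter thresholds, and leaving out each library. Members and lists were chosen with earlier results of these data known. Genes were named by rule (up to 4 in each direction per list, the 15 largest changes and highest levels, and 8 per direction against the small intestine), with a choice among those made for length, and others named after their values were seen. Levels per length use union exon length. No replicate pair of libraries agreed within sampling noise. Bounds and intervals cover counting error only. A few genes are not reported here.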

Additional observations from a re-analysis of the deposited data

Results flagged for a closer look

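The results below were picked out because the difference between Venus-positive and Venus-negative cells was itself different in the colon, by an interaction contrast in edgeR at an adjusted p under 0.05. This held for 414 genes whose log2 fold change was larger and 207 whose log2 fold change was smaller in the colon than in the mean of the small intestine, and for 190 and 229 genes against the ileum. A larger value covers both a stronger increase and a weaker decrease. The regions also differ in the make-up of their Venus-positive cells, as described above.

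Among named genes and those with the largest differences, the log2 fold change in the colon exceeded that of the small intestine, by the log2 difference in brackets, for *Dnase1l2* (7.43), *Slc8a1* (6.30), *Rhbdl3* (6.14), *Padi2* (5.51), *Etv5* (5.14), *Ceacam12* (5.08), *Plet1* (5.03), *Grk3* (4.87), *Bmp3* (4.69), *Pdk4* (4.26), *Car4* (4.08), *Adra2a* (4.08), *S100g* (3.98), *Nts* (3.77), *Prom1* (3.16), *Chgb* (2.93), *Chga* (2.62), *Slc26a3* (2.24), *Slc51a* (2.12), *Osr2* (2.10), *Tph1* (1.93), *Prkg2* (1.89), *Hkdc1* (1.89), *Cd44* (1.87), *Ces2c* (1.81), *Cyp4b1* (1.77), *Krt19* (1.73), *Lypd8* (1.66), *Cdkn2b* (1.64), *Hist1h1b* (1.51), *Btnl6* (1.48), *Naip1* (1.47), *Abcc3* (1.36), *Slc16a1* (1.35) and *Nr1h4* (1.22). Against the ileum alone, 12 of these 35 passed the test and 23 did not, the latter with adjusted p values as high as 0.928 for *Slc51a*, 0.924 for *Nr1h4*, 0.898 for *Ces2c* and 0.845 for *Cyp4b1*. Leaving out each of the 24 libraries in turn, 15 of the 35 kept the difference from the small intestine.

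It was below that of the small intestine for *Gm16867* (-7.44), *Pcdh19* (-7.12), *Slc4a5* (-5.30), *Slc30a2* (-4.92), *Slc23a4* (-4.77), *Crym* (-4.30), *Clca1* (-4.29), *Zg16* (-3.86), *Fcgbp* (-3.32), *Ramp1* (-3.25), *Dpp4* (-3.04), *Muc2* (-3.01), *Slc36a4* (-2.96), *Slc5a8* (-2.87), *Tff3* (-2.56), *Btc* (-2.54), *Spink4* (-2.40), *Ccl6* (-1.88) and *Itga6* (-1.05). Of these 19, 13 passed against the ileum alone, those that did not being *Slc4a5*, *Spink4*, *Btc*, *Ccl6*, *Itga6* and *Slc36a4*, and 9 kept the difference from the small intestine when each library was left out. The value for *Slc4a5* rests on negative library 1, the negative libraries being at 5.39, 0.146 and 0 normalised CPM, and without it the colonic log2 fold change was -0.63 (adjusted p = 0.864, edgeR). For *Crym* (4.79, 0.293 and 3.32 against 0.309, 0.283 and 0.258 in positive cells) and *Slc30a2* (0.12, 0.952 and 0.255 against 0, 0 and 0.129) the sorts overlapped in the colon, and the difference from the small intestine was lost without colon negative library 1 or 3 or any colon positive library for *Crym*, as well as without ileum positive library 3, and without colon negative library 2 for *Slc30a2*, at an adjusted p of at most 0.120 and 0.0668. For genes with few counts in a group, among them *Dnase1l2*, *Rhbdl3*, *Gm16867* and *Pcdh19*, the fitted difference depends on the prior count and its size is not a measured fold.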

How the results depend on the processing

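The number of genes higher in positive cells was 1472 with DESeq2, 1014 with library size alone and 1015 with the colon libraries alone, against 1400. DESeq2 called 1118 genes lower in the colon, and 1076 and 857 genes in the contrasts of the colon with the small intestine and the ileum, where edgeR called 572, 621 and 419. With library size alone the last 2 numbers were 404 and 259. At an adjusted p of 0.01 edgeR called 811 genes higher and 161 lower. Leaving out each library in turn gave 747 to 1283 genes higher and 180 to 489 lower, 276 to 1059 for the small intestine (the lowest without colon positive library 2, the highest without jejunum positive library 3) and 183 to 660 for the ileum (without ileum positive library 3 and ileum positive library 1). The causes were not tested. Among named genes a sign changed for a few that were not called. *Ankrd60* went to -0.02 with at least 10 counts in every colon library and -0.03 with the colon libraries alone. Over the libraries left out, *Ankrd60* ranged from -0.14 to 0.23, *Krt18* reached 0.05, *Lgals4* ranged from -0.04 to 0.61, *Mptx1* from -1.02 to 1.25, *Reg4* from -0.16 to 1.74 and *Slc5a8* from -0.42 to 0.01. Library size alone shifted the median log2 fold change of all genes to -0.07 and RLE factors to -0.08. With all libraries kept, further calls of named genes were lost. DESeq2 did not call *Bmp3* (adjusted p 0.0570), *Car1* (0.0742), *Ceacam12* (0.0527) or *Nts* (0.0526). The colon libraries alone did not call *Btc* (0.118), *Ido1* (0.0593), *Krt8* (0.0562), *Nts* (0.0756), *Clca1* (0.0629) or *Slc27a2* (0.0614). Library size alone did not call *Krt8* (0.140), *Clca1* (0.0521), *Hsp90aa1* (0.0609), *Itga6* (0.0659) or *Kcnn4* (0.0553). The i5 index as a covariate gave 1599 genes higher and 678 lower. Within the index D501 (1 library of each sort) 1400 of the genes called higher and 559 of those called lower had the direction of the call, and within D502 (2 of each) 1400 and 571; the calls rest on these same libraries, so this is no independent support. No paired analysis was made because the labels carry no replicate numbers and do not name the mouse. Pairing by the order of the libraries was not tried. The high share of mitochondrial ribosomal RNA leaves 2583422 to 5307277 nuclear counts per colon library, so genes near 3 counts were not resolved.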
